A study of Mus musculus with 6 samples.

Results

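Pou5f1, Nanog, Sox2 and Sall4, the core transcription factors of embryonic stem (ES) cell identity, were followed through activation and inhibition of Activin/Nodal signalling in mouse ES cells. The 4 genes were chosen by name, and every probe set annotated to one of them alone was taken, which gave 5 of the 45037 probe sets tested and 4 of the 18193 genes with a named probe set. Pou5f1, Nanog and Sox2 had 1 probe set each and Sall4 had 2. RNA came from E14Tg2a, a line of mouse ES cells, with every group grown in the defined medium N2B27 supplemented with LIF (1000 U/ml) and BMP4 (20 ng/ml). One group also received activin at 10 ng/ml for 2 h, one received the inhibitor SB431542 at 5 µM for 24 h, and the control group was untreated, with no vehicle stated. Each group had 2 single-colour Affymetrix arrays, and the values are intensities on a linear scale as deposited. Treatment and duration cannot be told apart when the activin and SB431542 groups are compared.

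Pou5f1 (also called Oct4) is a POU-domain factor that binds DNA together with Sox2, an HMG-box factor, at composite Oct-Sox elements. Nanog is a homeodomain factor that stabilises self-renewal, and Sall4 is a zinc finger protein that works with the other three and is needed for normal Pou5f1 expression in early mouse embryos. Activin and Nodal signal through type I receptor kinases to Smad2 and Smad3, and SB431542 blocks those kinases. BMP4 and LIF in the medium act through Smad1/5/8 and Stat3, and this pair maintains mouse ES cells without serum.

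The promoters are shown because Oct4 and Sox2 are known to bind regulatory elements of the core genes themselves. The 250 bases before the most upstream annotated start are from RefSeq (GRCm38.p6, plus strand), where 3 of the 4 genes had a promoter window. Capitals mark the letters TTTGCAT, the core of the Oct octamer, and ACAATG, the core of a Sox site, on either strand. The intervals are chr17:35505782-35506031 for Pou5f1, chr6:122707239-122707488 for Nanog and chr3:34649745-34649994 for Sox2.
Pou5f1: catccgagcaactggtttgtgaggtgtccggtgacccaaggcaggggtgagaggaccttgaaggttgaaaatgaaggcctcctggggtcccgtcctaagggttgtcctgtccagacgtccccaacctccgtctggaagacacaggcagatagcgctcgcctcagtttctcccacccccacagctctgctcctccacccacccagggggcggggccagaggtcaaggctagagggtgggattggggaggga
Nanog: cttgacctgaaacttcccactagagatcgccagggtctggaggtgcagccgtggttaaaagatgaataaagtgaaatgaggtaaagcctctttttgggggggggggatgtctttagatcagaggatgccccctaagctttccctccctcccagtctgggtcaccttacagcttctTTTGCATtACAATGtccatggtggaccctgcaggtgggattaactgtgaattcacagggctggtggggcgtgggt
Sox2: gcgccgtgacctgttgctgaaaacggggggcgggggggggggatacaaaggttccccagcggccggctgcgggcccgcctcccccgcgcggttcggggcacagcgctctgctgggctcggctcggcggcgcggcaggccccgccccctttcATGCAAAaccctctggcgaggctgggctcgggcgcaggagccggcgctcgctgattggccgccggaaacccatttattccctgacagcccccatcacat

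In the Nanog window the octamer core began 75 bases before the start and the Sox core 67 bases before it, 1 base apart on the same strand. Joined with any base between them, as TTTGCATNACAATG on either strand, these letters occurred in 2 of 32851 windows of the same length (0.00609%), both of them windows of Nanog. The Sox2 window held 1 octamer core, on the minus strand 99 bases before the start, and no Sox core. The Pou5f1 window held neither. Only these 250 bases and these exact letters were searched, so elements farther away or spelled otherwise are not covered. Alone, TTTGCAT occurred in 4.12% of windows and ACAATG in 10.7%. The palindromic Smad box GTCTAGAC, found in 0.167% of windows, was in none of the 3, and the Smad half-site CAGAC, found in 42.2%, occurred 2 times each before Pou5f1 and Nanog and 0 times before Sox2.

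RefSeq annotates 7 Pou5f1-related and 2 Nanog pseudogenes, and signal from such copies was not tested because probe sequences were not used here. The label of ES cells was checked first, and the 4 genes were far above background in every group. Their intensities ran from 556 to 6087, against a highest value of 34 among 27 probe sets for unspiked Bacillus transcripts, which describe the background. All 10 ES cell markers examined, the 4 genes among them, were above that value on every array. So were 8 of 10 trophectoderm, 4 of 7 primitive streak, 3 of 10 primitive endoderm, 3 of 7 neuroectoderm and 4 of 10 fibroblast markers, several of which ES cells express too. Markers of those lists went both ways, and the ones named here were picked with their values known. Elf5 of the trophoblast (13 to 21) and Gsc of the organiser (13 to 19) were below it on every array. Gata6 of primitive endoderm (26 to 35) and Sox1 of neuroectoderm (20 to 40) were at or near it. From the same lists Cdx2 (151 to 264), Mesp1 (78 to 126), Dab2 (144 to 167) and Pax6 (130 to 246) were above it on every array. The low markers thus do not stand for their lists. Lefty2, a Nodal antagonist induced by Nodal, had intensities of 1348 and 1253 with activin, 14 and 16 with SB431542, and 497 and 493 in control, so the pathway's own read-out was above control with activin and below it with the inhibitor. Both SB431542 values of Lefty2 were below the highest background value of 34.

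The comparison of SB431542 with control asked whether the core factors depend on the Activin/Nodal signal already present in the culture. Pou5f1 and Nanog were lower on both inhibitor arrays, Sox2 differed little, and Sall4 could not be placed because its control arrays were far apart. None of the 5 probe sets passed limma's default test after Benjamini-Hochberg adjustment over all probe sets at a threshold of 0.05, which called 7 of 45037 (0.0155%). At an unadjusted p under 0.05 limma gave 1, Pou5f1, where 13% of all probe sets were so called. The default shrinks every probe set towards 1 common variance, although bright probe sets varied less, with a median residual SD of 0.06 log2 units against 0.19 over all. The alternative named the intensity trend lets limma's prior variance follow the mean intensity and limits the pull of outlying variances. By it Pou5f1 and Nanog fell, 2 of 5 probe sets, where 1.6% of all probe sets were called lower. Among the 893 probe sets with a mean log2 intensity of at least 12, as bright as these, 4.48% were called lower by that setting and 18.4% were called in either direction.

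**Figure D1:**
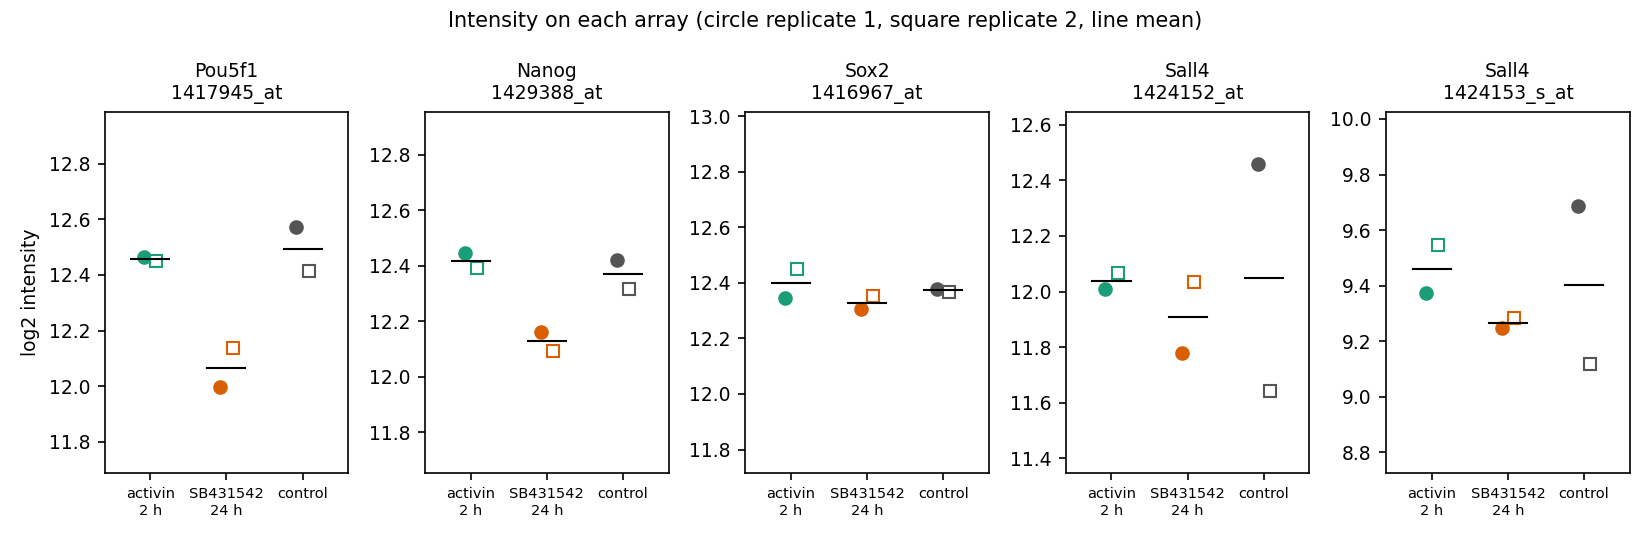
Log2 intensity of the 5 probe sets (panels) on the 6 arrays, by group. Circles are replicate 1, squares replicate 2 and lines the means of 2 arrays. The y axes differ in position and share 1 span. Both SB431542 arrays lie below all other arrays for Pou5f1 and Nanog, and the control arrays of Sall4 lie outside the other 4.

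Pou5f1 (probe set 1417945_at, on chromosome 17) had intensities of 5652 and 5590 with activin, 4082 and 4499 with SB431542, and 6087 and 5455 in control. Both SB431542 arrays were below the other 4, and the activin arrays lay between the 2 control arrays. Its mean log2 intensity was 12.07 ± 0.10 with SB431542 and 12.49 ± 0.11 in control (SD, n = 2 each). The log2 change was -0.43 (SE 0.13, 95% confidence interval -0.75 to -0.10, limma default adjusted p = 0.308), to 0.744 times the control level. With the intensity trend the interval was -0.58 to -0.28 and limma's adjusted p was 1.51e-04. Of the 893 bright probe sets, 2, Pou5f1 among them, had a change this low or lower.

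Nanog (1429388_at, on chromosome 6) had intensities of 5574 and 5376 with activin, 4586 and 4366 with SB431542, and 5479 and 5104 in control. Again both inhibitor arrays were the lowest of the 6, and the activin and control arrays overlapped. The mean log2 intensity was 12.13 ± 0.05 with SB431542 and 12.37 ± 0.07 in control (SD, n = 2 each). The log2 change was -0.24 (SE 0.12, interval -0.54 to 0.06, limma default adjusted p = 0.463), to 0.846 times control. With the intensity trend the interval was -0.39 to -0.10 and limma's adjusted p was 0.0408. That call was near the threshold. It was lost without control replicate 1, SB431542 replicate 1 or SB431542 replicate 2, with adjusted p-values up to 0.426, while that of Pou5f1 held without each of the 6 arrays in turn, with adjusted p at most 0.0268. In 4 of these 6 fits an arm is a single array, which is assumed to vary like the other groups, so they test no spread of its own.

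Sox2 (1416967_at, on chromosome 3) had intensities of 5200 and 5599 with activin, 5058 and 5229 with SB431542, and 5329 and 5285 in control. The inhibitor arrays were again below both control arrays, by 0.015 log2 units at the nearest, and the lower activin array was within the inhibitor range. The log2 change was -0.05 (SE 0.12, interval -0.34 to 0.25, limma default adjusted p = 0.897). With the intensity trend the interval was -0.19 to 0.10, with limma's adjusted p at 0.826. In all, 3 of 5 probe sets had both inhibitor arrays below both controls, and 22.1% of all probe sets and 30.6% of the bright ones did so too. Whether the change of Sox2 differs from those of Pou5f1 and Nanog was not tested.

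Sall4 (on chromosome 2) was measured by 1424152_at and 1424153_s_at, whose annotation cites 1 accession, so they are not independent views of the gene. The first had intensities of 4117 and 4286 with activin, 3518 and 4191 with SB431542, and 5630 and 3195 in control. The second had 664 and 748 with activin, 608 and 624 with SB431542, and 824 and 556 in control. In both, control replicate 1 was the highest of the 6 arrays and control replicate 2 the lowest, with both treated groups between them. The 2 probe sets followed each other over the 6 arrays (r = 0.93).

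The gap between the control arrays was 0.82 log2 units for the first Sall4 probe set and 0.57 for the second. The other genes had gaps of 0.16 for Pou5f1, 0.10 for Nanog and 0.01 for Sox2, beside a median of 0.07 over the bright probe sets. None of the 893 bright probe sets had a gap as large as that of the first Sall4 probe set, the largest being 0.66. The first Sall4 probe set, with a mean just under log2 12, is not among them. The control columns have median intensities of 46 and 37, in the direction of the Sall4 gap, while the median signed gap of the bright probe sets was 0.005. With columns shifted to 1 median, an alternative for the gap chosen after seeing the data, the Sall4 gaps were 0.50 and 0.25, the bright probe sets had a median signed gap of -0.31, and 26 and 596 of them had an absolute gap as large. Over the 6 arrays the first Sall4 probe set correlated with the column medians at r = 0.59, a description of 6 points. For the second probe set as deposited, 0.568% of all probe sets with a mean log2 from 9 to 10 had a gap as large.

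**Figure D2:**
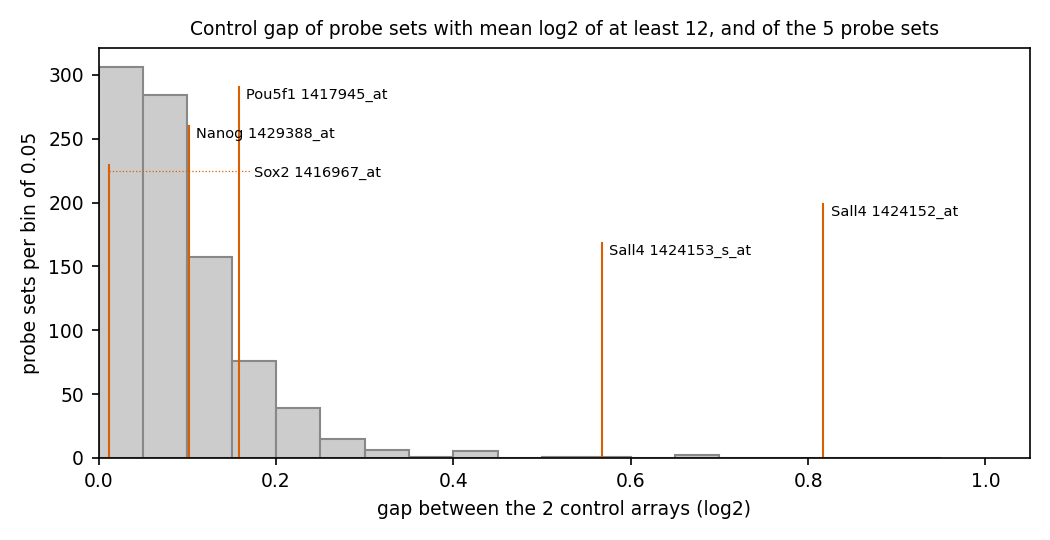
Absolute log2 difference between the 2 control arrays (x axis) for the 893 probe sets with mean log2 intensity of at least 12 (bars, number per bin of 0.05), with vertical lines at the gaps of the 5 probe sets. Before any shift of the columns, both Sall4 lines, at 0.57 and 0.82, stand to the right of nearly all bars.

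The change of Sall4 with SB431542 was -0.14 for both probe sets (SE 0.28 and 0.21), with limma default adjusted p at 0.863 and 0.820. It rested on which control array was used. A fit without either takes the spread from the other groups alone, so that the control spread is no longer in its error. For the first probe set it was +0.27 without control replicate 1 and -0.55 without control replicate 2, where the intensity trend called it lower with limma's adjusted p = 1.08e-04. For the second probe set the values were +0.15 without control replicate 1 and -0.42 without control replicate 2 (limma with the intensity trend, adjusted p = 0.0423). The sign of the Sall4 change thus turned with the control array left out.

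**Figure D3:**
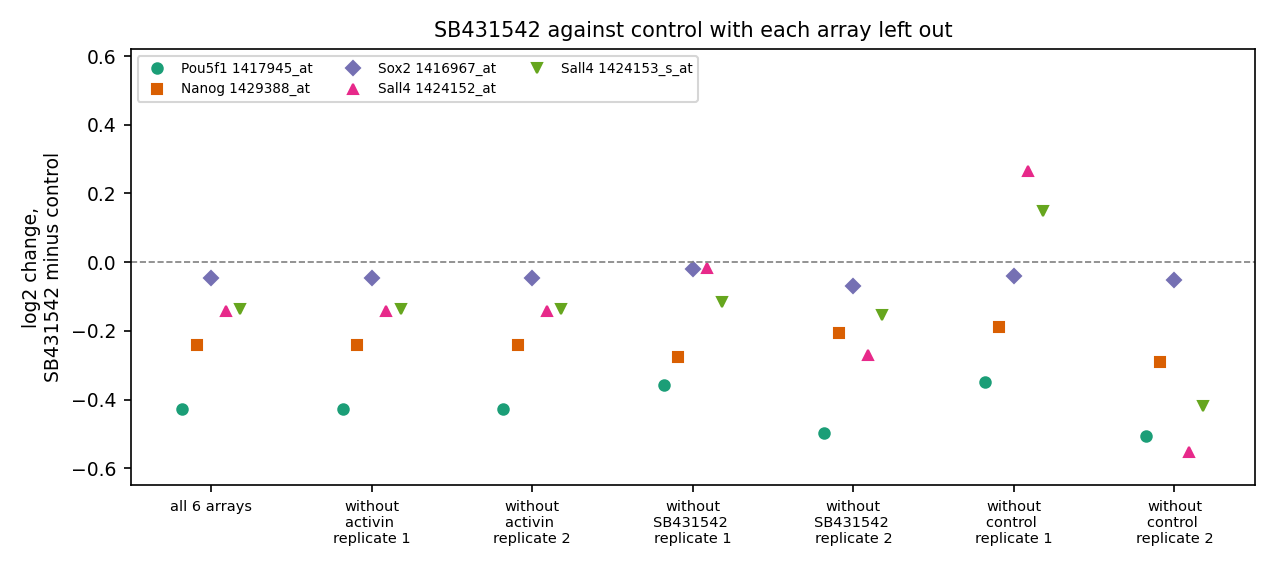
Log2 change of the 5 probe sets (y axis), SB431542 minus control, with all 6 arrays and with each array left out (x axis). Pou5f1 stays between -0.51 and -0.35 and Nanog between -0.29 and -0.19, while both Sall4 probe sets change sign with the control array left out.

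In a bulk sample, fewer cells that express a gene and less RNA per cell cannot be told apart. Marker lists were therefore summed over each array beside the changes of Pou5f1 and Nanog. The 10 ES cell markers summed to 49345 and 51178 with SB431542 and to 59545 and 56057 in control. That sum holds Pou5f1, Nanog, Sox2 and Sall4 themselves, so it is no separate check on them. Its brightest gene, Dppa5a, a marker of undifferentiated cells, had 14088 and 14946 with SB431542 and 17117 and 18040 in control. By the intensity trend 5 of the 10 fell, where 2.23% of all genes and 4.48% of the bright probe sets did. These were Pou5f1, Nanog, Utf1, Tdgf1 and Dppa5a, the last at -0.28. Zfp42 and Fgf4, both at 0.01, Esrrb at 0.11, Sox2 at -0.05 and Sall4 at -0.14 were not called. The 10 trophectoderm markers summed to 17941 and 17676 with SB431542 and to 13462 and 11696 in control, mostly from Krt8 and Krt18, keratins of simple epithelia. By the intensity trend 7 of these 10 rose and 1 fell, where 4.25% of genes rose and 2.23% fell. Those that passed limma's default were Ascl2, a factor of trophoblast progenitors, at a log2 change of 2.03, and Eomes, a T-box factor of trophoblast and primitive streak, at -2.32 (adjusted p = 0.0457 for each). Cdx2, a factor that Oct4 restrains in the early embryo, had 207 and 170 with SB431542 and 219 and 186 in control. Of the list, 8 of 10 were above background on every array, the other two being Elf5 and Gata3. The 7 measured primitive streak markers summed to 320 and 342 with SB431542 and to 992 and 895 in control. By the intensity trend 4 of the 7, Eomes among them, fell, where 2.23% of all genes did. Primitive endoderm markers summed to 1086 and 1092 with SB431542 against 988 and 957 in control, and neuroectoderm markers to 629 and 554 against 617 and 578. Fibroblast markers summed to 2526 and 2697 against 3893 and 3777, mostly from Vim. By the intensity trend 1 of 10 primitive endoderm markers (Col4a1, 0.44) and 1 of 7 neuroectoderm markers (Pax6, 0.74) rose, and 0 of either list fell. Of the 10 fibroblast markers 2 fell (Vim, -0.58, and Col1a1, -0.98) and 0 rose. Beside these, 4.25% of all genes rose and 2.23% fell. The part of these shifts in the changes of Pou5f1 and Nanog was not tested.

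The comparison of activin with control asked whether 2 h of added ligand changes the core factors. No probe set of the 4 genes passed by either setting, and 0 of 5 had groups that did not overlap, where 29.2% of all probe sets did. By limma's default 0 of 45037 passed (0%), with 2797 (6.21%) and none of the 5 at an unadjusted p under 0.05, and 97 (0.215%) passed with the intensity trend. Pou5f1 was at -0.04 (interval -0.36 to 0.29), Nanog at 0.05 (-0.25 to 0.35) and Sox2 at 0.02 (-0.27 to 0.32) on the log2 scale. On the linear scale the default intervals reach from 0.779 to 1.22 times control for Pou5f1, from 0.840 to 1.28 for Nanog and from 0.828 to 1.25 for Sox2. The intensity trend narrowed them to between -0.19 and 0.11 for Pou5f1, between -0.10 and 0.20 for Nanog and between -0.12 and 0.17 for Sox2 in log2 units.

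For Sall4 the activin arrays agreed closely, with a gap of 0.06 in the first probe set and 0.17 in the second. The changes were -0.01 (interval -0.72 to 0.69) and 0.06 (-0.47 to 0.59). Without control replicate 1 the first probe set was at +0.39 and passed with the intensity trend (limma adjusted p = 0.0391). Without control replicate 2 it was at -0.42 and passed in the other direction (limma adjusted p = 0.0203). Both fits again leave a single control array and drop the control spread from the error.

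The comparison of activin with SB431542 uses no control array for its means, while its errors still hold the spread of the control arrays through the shared variance. Pou5f1 was higher with activin by 0.39 log2 units (SE 0.13, interval 0.07 to 0.72, limma default adjusted p = 0.489), 1.31 times the SB431542 level. Nanog was higher by 0.29 (SE 0.12, interval -0.01 to 0.59, limma default adjusted p = 0.569), 1.22 times. By the intensity trend both were called higher in the activin group than in the SB431542 group, with limma's adjusted p at 9.36e-04 for Pou5f1 and 0.0175 for Nanog. These were 2 of 5 probe sets, where 0.802% of all probe sets were called higher. By default 0 of the 5 passed, where 9 of 45037 (0.02%) did, and 1, Pou5f1, had an unadjusted p under 0.05, where 9.04% of all did. Without SB431542 replicate 1 neither passed by either setting, with limma's adjusted p at 0.114 for Pou5f1 and 0.111 for Nanog under the intensity trend. Nanog was lost also without SB431542 replicate 2 (0.372) or activin replicate 1 (0.144).

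Sox2 was at 0.07 (interval -0.23 to 0.37) between the treatments, and Sall4 at 0.13 (interval -0.58 to 0.84) and 0.19 (-0.34 to 0.72). Of the 5 probe sets, 3 had groups that did not overlap, Pou5f1, Nanog and the dimmer Sall4, where 36.9% of all probe sets did. This comparison and the previous one share the activin arrays, and this one shares the SB431542 arrays with the first, so their values are not independent.

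**Figure D4:**
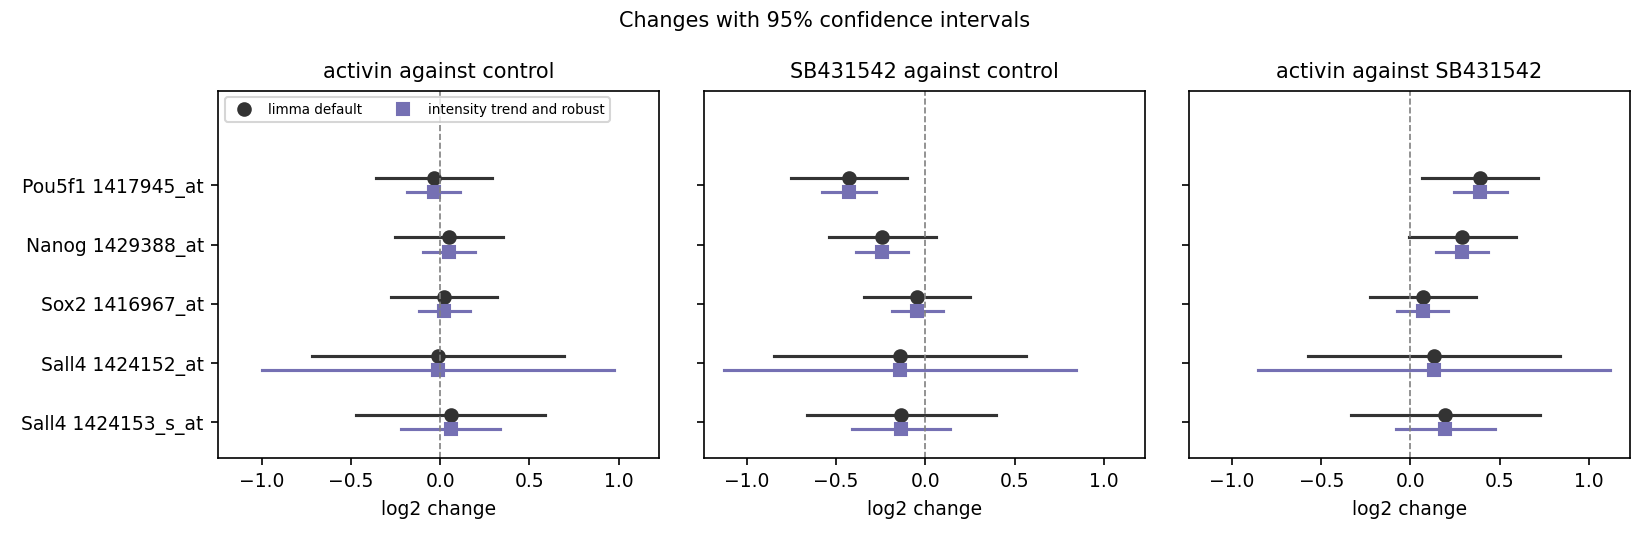
Log2 change (x axis) of the 5 probe sets in the 3 comparisons (panels), each the first group minus the second. Circles are limma's default and squares the intensity trend with robust estimation, and bars are 95% confidence intervals from 2 arrays a group. Pou5f1 with SB431542 lies at -0.43 and Sox2 at -0.05.

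Over the 3 groups the order of levels for Pou5f1 was control, activin and SB431542, and for Nanog and Sox2 activin, control and SB431542. Activin and control differed by less than their spread in all 3. The step down to SB431542 from the lowest other array was 0.28 log2 units for Pou5f1 and 0.15 for Nanog. Over the 6 arrays Pou5f1 and Nanog correlated at r = 0.91, a description of 6 points that share their arrays and normalization. Sox2 correlated at 0.63 with Pou5f1 and 0.50 with Nanog, and Sall4 at 0.50, 0.39 and 0.35 with Pou5f1, Nanog and Sox2.

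Oct4, Sox2 and Nanog act on a network of target genes and partner proteins, and 22 of 25 such genes had a named probe set. With SB431542, 1 of the 22 passed by default, where 0.0275% of genes did. This was Lefty1, a Nodal antagonist and Oct4-Sox2 target, at 48 and 26 with SB431542 and 1756 and 1524 in control (limma adjusted p = 0.0341). Its lower SB431542 value, 26, was below the highest background value of 34, so the size of its fall is uncertain. Lefty1 is also a direct target of the inhibited pathway. By the intensity trend 5 of 22 fell and 2 rose, beside 2.23% and 4.25% of all genes. Utf1 and Tdgf1, among those that fell, were also counted among the ES cell markers, as were the uncalled Fgf4, Zfp42 and Esrrb. The counts of the lists are thus not separate. The median change was -0.06 over the 22 and -0.002 over all genes.

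The other genes named from this network were chosen after their values were seen. Tfcp2l1, a transcription factor of the naive state, was at -0.42, with 1337 and 1116 with SB431542 and 1653 and 1621 in control (limma with the intensity trend, adjusted p = 0.00589). Utf1, a chromatin protein of ES cells whose enhancer carries an Oct-Sox element, was at -0.33, with 2824 and 2805 against 3544 and 3547 (adjusted p = 0.00536 by the same limma setting). Nr0b1, an orphan nuclear receptor, was at -0.31. Tdgf1, the Nodal co-receptor Cripto, was at -0.26, with 4386 and 4763 against 5602 and 5362.

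Klf4, a zinc finger factor of the naive state that LIF induces, rose by the intensity trend, with 2623 and 2501 with SB431542 and 1818 and 1795 in control, a log2 change of 0.50 (limma adjusted p = 1.58e-04). Zfp281, a zinc finger partner of Nanog, rose too, at 0.55. The other 15 of the 22 were not called, with changes from -0.27 for Klf5 to 0.21 for Fbxo15, a range that holds the -0.24 of Nanog. Fgf4, a growth factor gene with an Oct-Sox enhancer, was at 0.01 (SE 0.11), with 1789 and 1819 against 1772 and 1804. Zfp42 (Rex1), a marker of undifferentiated cells, was at 0.01 (SE 0.13). Esrrb, an orphan nuclear receptor of the naive state, was at 0.11 (SE 0.12). After activin 0 of the 22 passed by either setting, where the intensity trend called 0.148% of genes, with a median of 0.02. Between activin and SB431542 Lefty1 passed by default (limma adjusted p = 0.0164), where 0.033% of genes did. By the intensity trend 4 of 22 were higher with activin and 2 lower, where 1.26% and 2.12% of genes were, and Utf1 and Tdgf1 were among the higher and Klf4 among the lower.

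**Figure D5:**
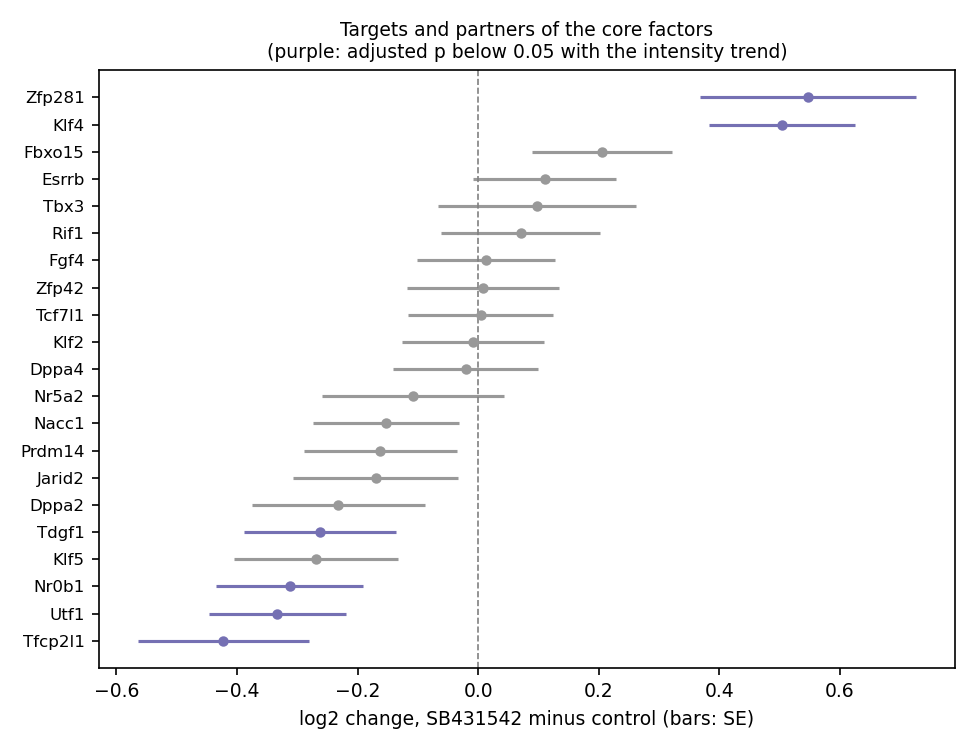
Log2 change, SB431542 minus control (x axis), of 21 targets and partners of the core factors, ordered by size, with bars of 1 SE from limma's default. Lefty1, at -5.53 with its lower SB431542 value below the highest background value, is left off the scale. Purple marks the 2 higher and 4 lower genes called with the intensity trend, and Fgf4 and Zfp42 sit at 0.01.

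Relatives of the factors can share their DNA sites, so the families were followed as well. With SB431542, 0 of 11 measured POU genes passed by default, where 0.0275% of all genes did. Pou5f1 was the 1 POU gene called by the intensity trend, where 6.48% of genes were called. The other POU genes with the smallest p were Pou3f2 (-0.72), Pou3f1 (0.32) and Pou3f4, and none of these passed by either setting. Pou3f4 was below the highest background value on both arrays of either group, and no change is given for it. Among 19 Sox genes 0 passed by default. By the intensity trend 2 rose and 2 fell, where 4.25% of all genes rose and 2.23% fell. Sox14 was at 1.25, Sox21 at 0.61, Sox12 at -0.47 and Sox30 at -0.66. Sox30, with a mean log2 intensity of 3.25 with SB431542 and 3.90 in control, was below the highest background value of 5.09 in both. Sox14 was at 6.35 with SB431542 and 5.10 in control, at that value. Sox3, a close relative of Sox2 named after its value was seen, was at -0.61 and did not pass by either setting (limma with the intensity trend, adjusted p = 0.0726). Of the Sall genes, Sall1 was at 0.07, Sall2 at -0.32 and Sall3 at -0.67, and 0 of 4 passed by either setting. After activin 0 genes of the 3 families passed by either setting, where 0% of all genes passed by default and 0.148% by the intensity trend.

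The genes whose pattern over the 6 arrays was most like each factor were ranked by Pearson's r of log2 intensity among 6492 genes with a mean of at least 8. For Pou5f1 they were Pim1, Csrp2, Ptpn4, Igfbp3 and Oat (r from 0.991 to 0.996), and 4.31% of the genes reached 0.9. Igfbp3, a secreted binder of insulin-like growth factors, had 770 and 691 with activin, 258 and 316 with SB431542, and 867 and 687 in control. For Nanog they were Sfn, Cltb, Wwc1, Efna4 and Skil (r from 0.985 to 0.992), and 2.51% reached 0.9. Skil, a Smad co-repressor induced by Smad2/3 signalling, had 1612 and 1628 with activin, 1143 and 1079 with SB431542, and 1548 and 1409 in control.

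For Sox2 the genes were Smg5, Maf1, Klhl8, Vangl1 and Chd9 (r from 0.950 to 0.986), with 0.308% at 0.9 or more. For Sall4 they were Ift46, Slc39a1, Clasp1, Utp23 and Dcun1d4 (r from 0.982 to 0.994), with 1.79% at 0.9 or more. Slc39a1, a zinc transporter, had 337 and 347 with activin, 310 and 353 with SB431542, and 446 and 288 in control. Its control gap follows from the ranking, since Sall4 varied most between its control arrays. With columns shifted to 1 median, Csrp2 and Oat stayed among the 5 of Pou5f1, Smg5 among those of Sox2, Slc39a1 and Dcun1d4 among those of Sall4, and none among those of Nanog.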

How the data were processed

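The authors deposited 1 table of probe set intensities on a linear scale, whole numbers from 6 to 26405 for 45101 probe sets on 6 arrays. RMA is named in the submitters' processing notes, while the sources used here give neither its version nor the set of arrays normalized together. The column medians of the deposited intensities ran from 37 to 49. Intensities were converted to log2 with no further normalization, 64 control probe sets were left out, and gene names came from the platform annotation. Groups came from the sample titles. The labels spell the inhibitor in 2 ways, and SB431542 is used here. Nothing in the labels states separate cultures for the arrays of a group, and p-values then reflect the spread between 2 arrays, possibly a technical one.

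One limma 3.58.1 model (R 4.3.3) covered the 6 arrays and gave each group a mean, with eBayes, 3 residual degrees of freedom and Benjamini-Hochberg adjustment over 45037 probe sets at 0.05. Confidence intervals are limma's, for single probe sets, unadjusted. The prior had 2.51 degrees of freedom by default. Under the intensity trend, which includes robust estimation, it differs between probe sets, with a median of 34.3. An exact permutation of 2 against 2 arrays cannot give a two-sided p below 0.333 and was not used. In lists, the probe set with the highest mean stood for a gene. The genes, lists and tests were chosen with earlier results of these data known. By the naming rule, list members that passed by default, or otherwise the 4 with the smallest p, and the 5 genes most like each factor were named. Further genes from the marker lists were picked with their values known. The fit was run on simulated data with independent noise and added changes larger than those of the core factors. It therefore does not cover changes of their size or effects shared by an array.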

Additional observations from a re-analysis of the deposited data

How the results depend on the processing

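By limma's default 0 of the 5 probe sets passed in any comparison. This held with quantile normalization of the 6 deposited columns, columns shifted to 1 median, the dimmest 40% left out, 16 added before log2, and only the 2 groups compared. With columns shifted, the SE in SB431542 against control was 0.27 for all 5, where the default gave 0.13 for Pou5f1 and 0.12 for Nanog. A count of 0 in that setting says little about changes of their size. With SB431542 against control the intensity trend with robust estimation called 2 and the trend alone 1, and between 1 and 4 were called with each array left out under the intensity trend with robust estimation. Between activin and SB431542 these were 2, 1, and between 0 and 2. For activin against control they were 0, 0, and between 0 and 1. Over all probe sets the intensity trend gave 97 calls for activin against control, where the default gave 0, 2242 for SB431542 against control, where it gave 7, and 1024 between the treatments, where it gave 9. SB431542 set against the mean of both other groups, an alternative chosen after seeing the data, gave 0 by default and 2 with the intensity trend. Columns shifted to 1 median turned 3 small changes after activin, Nanog to -0.015, Sox2 to -0.041 and the second Sall4 probe set to -0.0066. With each array left out the change after activin ran from -0.11 to 0.043 for Pou5f1, -0.0013 to 0.10 for Nanog, -0.029 to 0.077 for Sox2, and -0.42 to 0.39 and -0.23 to 0.34 for the Sall4 probe sets, with signs also turned at 0.015 and -0.028 without 1 activin array. With SB431542 it ran from -0.55 to 0.27 and -0.42 to 0.15 for Sall4. Where an array left out leaves 1 in an arm, that array is assumed to vary like the other groups. The causes were not tested. Between activin and SB431542 no sign changed.

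The replicate numbers are not stated to pair arrays. Deviations of same-numbered arrays correlated at -0.14 (activin and control), 0.02 (SB431542 and control) and -0.09 (activin and SB431542). With the replicate block 0 of the 5 probe sets passed in each comparison, and all calls went to 0, 0 and 1. Crossed control numbers, chosen after seeing the data, gave 0 of the 5 and 0, 2 and 2 in all.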

Other observations

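The genes beside the core factors were looked up, taking the nearest protein-coding gene on each side with a named probe set (RefSeq, GRCm38.p6), a choice made after seeing the data. Nanog lies between Dppa3, a maternal factor also used as an ES cell marker, and Slc2a3, a glucose transporter. With SB431542 Dppa3 was at 0.01 (SE 0.12) and Slc2a3 at 0.22 (SE 0.11), and Slc2a3 rose by the intensity trend (limma adjusted p = 0.0202), while Nanog was at -0.24. Between activin and SB431542 Slc2a3 was at -0.32 (limma with the intensity trend, adjusted p = 5.81e-04) and Nanog at 0.29. Beside Pou5f1, Tcf19 was at 0.12 with SB431542 and H2-Q10, with a mean log2 intensity of 4.60, was below the highest background value of 5.09, beside Sox2, Fxr1 was at -0.10 and Atp11b at 0.12, and beside Sall4, Atp9a was at 0.13 and Zfp64 at 0.08. None of these 6 passed by either setting.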
